A study of Rattus norvegicus with 6 samples.

Results

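The genes that encode receptors for serotonin (Htr), dopamine (Drd), noradrenaline and adrenaline (Adra1, Adra2, Adrb) and acetylcholine (muscarinic Chrm, nicotinic Chrna and Chrnb) were examined for differentially methylated regions (DMRs) after chronic stress. Their regions were selected by gene symbol in the authors' annotation table, and each region was counted once by its position and cytosine context. This gave 24 regions in 14 genes, of 24862 annotated regions in all. DNA had been taken from brain microvascular endothelial cells (BMECs), sorted as CD45-/CD31+ cells from the hippocampus of adult male Sprague-Dawley rats. The CUMS group (3 samples) had gone through chronic unpredictable mild stress for 8 weeks, a daily random choice among restraint, food and water deprivation, cage tilt, wet bedding, cold swimming and continuous light. The Ctrl group (3 samples) was not stressed. For each region the tables give a single combined level per group, without coverage. The values below therefore carry no error between samples or counting interval, and no test across rats was possible. In sorted bulk DNA, a different mix of cells and a different level within the cells cannot be told apart. "Higher" and "lower" describe those combined levels in CUMS relative to Ctrl.

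All of these receptors sit in the cell membrane and bind a small transmitter. Most are G protein-coupled and act through Gs (which raises cyclic AMP), Gi (which lowers it) or Gq (which releases calcium from stores). The nicotinic receptors and the serotonin receptors of Htr3a and Htr3b are instead ion channels built of subunits. They are best known in neurons, but vessels also carry them, and acetylcholine acting on endothelial muscarinic receptors is a classical trigger of vessel relaxation. In mammalian DNA most methylation lies on cytosines followed by guanine (CG), and CpG islands, the CG-rich stretches at many gene starts, are usually unmethylated. Cytosines in the CHG and CHH contexts (H stands for A, C or T) carry little methylation in most tissues.

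The promoters of 3 receptor genes with a CG region annotated to their promoter are shown, because these regions carry the CpG island pattern described next. The RefSeq windows of Chrna4 and Drd1 start inside the gene and are not shown. Each run gives the 250 bases before the outermost RefSeq start of the gene on the GRCr8 assembly, 5′ to 3′ on the gene's strand, with every CG dinucleotide in capitals. The runs are from chr14:79697477-79697726 (minus strand) for Adra2c, chr3:98348830-98349079 (plus strand) for Chrm4 and chr5:156595148-156595397 (minus strand) for Htr6. The DMR tables use mRatBN7.2, another assembly, so the regions were not placed on these letters.
Adra2c: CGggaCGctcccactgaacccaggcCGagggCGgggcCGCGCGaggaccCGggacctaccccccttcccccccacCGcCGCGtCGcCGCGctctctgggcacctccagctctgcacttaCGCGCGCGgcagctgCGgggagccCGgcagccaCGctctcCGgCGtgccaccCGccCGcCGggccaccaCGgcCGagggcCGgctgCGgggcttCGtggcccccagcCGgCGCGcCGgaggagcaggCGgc
Chrm4: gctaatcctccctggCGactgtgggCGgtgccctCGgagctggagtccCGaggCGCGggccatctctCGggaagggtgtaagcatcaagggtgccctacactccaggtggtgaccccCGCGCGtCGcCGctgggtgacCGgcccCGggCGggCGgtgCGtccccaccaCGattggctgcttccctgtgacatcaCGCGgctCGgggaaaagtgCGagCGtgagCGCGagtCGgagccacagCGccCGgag
Htr6: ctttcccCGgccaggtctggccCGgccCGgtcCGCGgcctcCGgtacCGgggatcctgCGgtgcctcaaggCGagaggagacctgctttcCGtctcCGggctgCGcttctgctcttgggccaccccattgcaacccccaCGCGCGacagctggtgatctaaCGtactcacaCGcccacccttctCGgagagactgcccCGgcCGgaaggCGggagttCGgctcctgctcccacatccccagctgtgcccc

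These stretches held 36 CG dinucleotides in Adra2c, 28 in Chrm4 and 22 in Htr6. Among 19334 promoters of the RefSeq table whose window starts at the outermost gene start, the median was 4, and 1.71%, 5.30% and 10.6% held at least as many as Adra2c, Chrm4 and Htr6, respectively. The GC box GGGCGG, searched on both strands (CCGCCC on the other), each match of which includes 1 of the capitalised CG pairs, occurred 2 times in Adra2c, 3 times in Chrm4 (a pair of these matches overlap) and 0 times in Htr6. It was present in 24.9% of all these promoters. Among the 23 receptor promoters in that set the median was 15 CG dinucleotides, and 52.2% held the GC box. Of the 15 receptor promoters without a region, 40.0% held it. A CG-rich start is therefore not particular to the genes shown.

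The 24 regions comprised 17 that were higher and 7 that were lower in CUMS (70.8% higher), against 75.3% of all annotated regions. By context, 6 of 7 CG regions were higher (80.0% of all annotated CG regions), as were 2 of 5 CHG regions (68.6% of all) and 9 of 12 CHH regions (78.5% of all). These are few regions and no test was made, so no difference from the whole table is drawn from the shares. Of the 46 receptor genes in the RefSeq table, 14 (30.4%) carried a region, compared with 25.9% of all protein-coding gene symbols. A RefSeq symbol that the authors' annotation does not use counted as without a region. Differences reached 10 percentage points, the minimum that the methods name for a final DMR, in 10 receptor regions, of which 5 were CG regions. The other 14 listed regions lay below that minimum. Over all annotated regions the median difference was 7.04 points where higher and -5.21 points where lower, so most of them lay below it too.

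**Figure D1:**
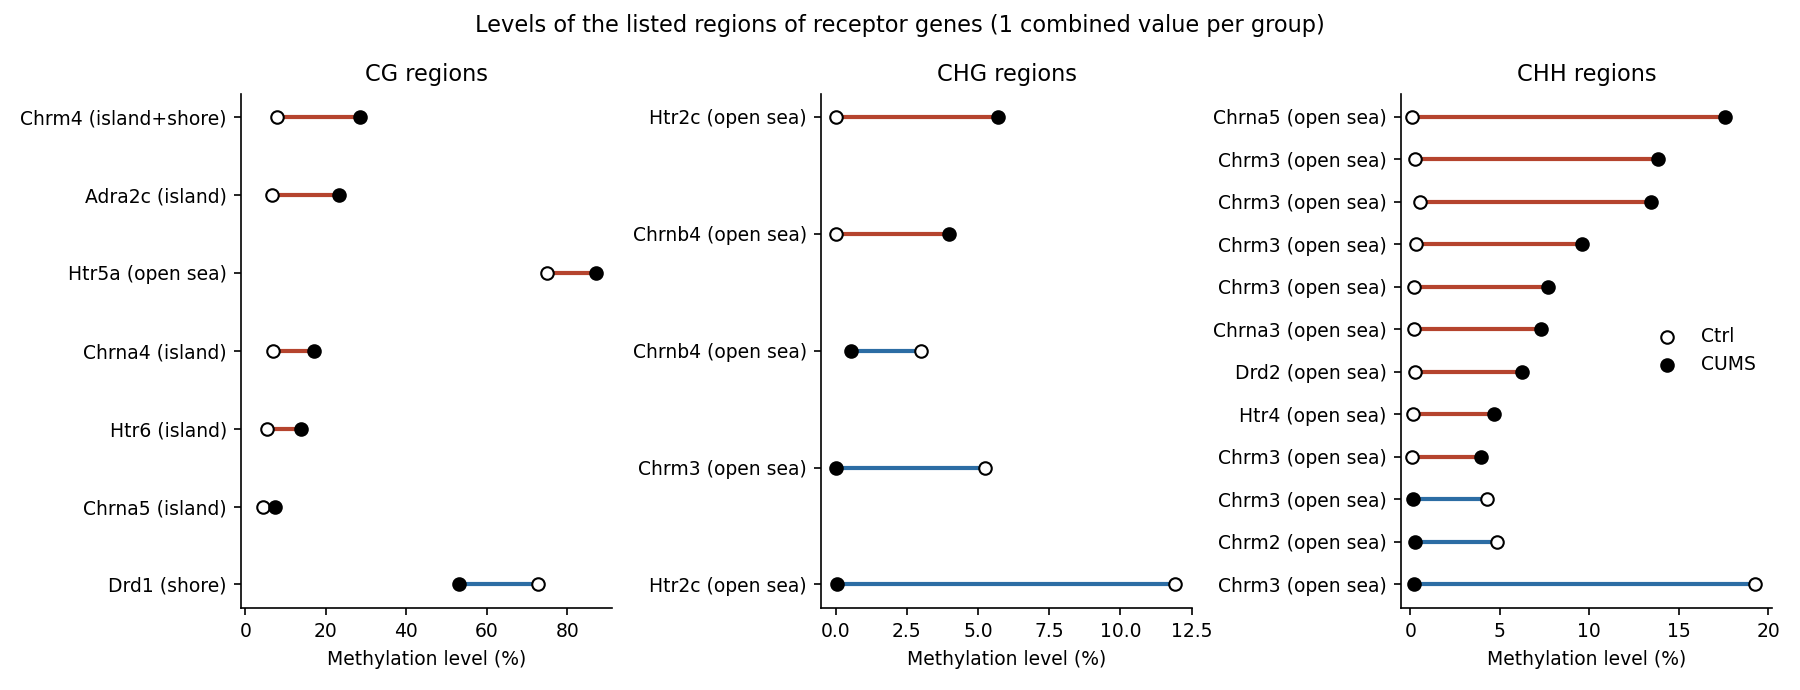
Methylation level in percent (horizontal axis, a separate scale for each context) of the 24 receptor gene regions, with Ctrl as open and CUMS as filled circles, joined by a red line where CUMS was higher and a blue line where it was lower. The CG regions in islands lie between 4.36% and 28.4%, and 17 non-CG regions each have 1 group close to 0.

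The classes of receptors differed in how many regions they held. Muscarinic receptor genes held 10 regions (6 higher, 4 lower) in 3 of 5 genes, and 8 of these regions lay in Chrm3. Nicotinic receptor genes held 6 regions (5 higher, 1 lower) in 4 of 13 genes. Serotonin receptor genes held 5 regions (4 higher, 1 lower) in 4 of 14 genes, and dopamine receptor genes held 2 regions, 1 in each direction, in 2 of 5 genes. Adrenergic receptor genes held 1 region, in Adra2c, and 8 of 9 genes held none, including all alpha1 and beta receptor genes. Gene length was not taken into account, so these counts are not rates. A total of 12 genes carried a higher region, 5 a lower one, and 3 (Chrm3, Chrnb4 and Htr2c) carried both.

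**Figure D2:**
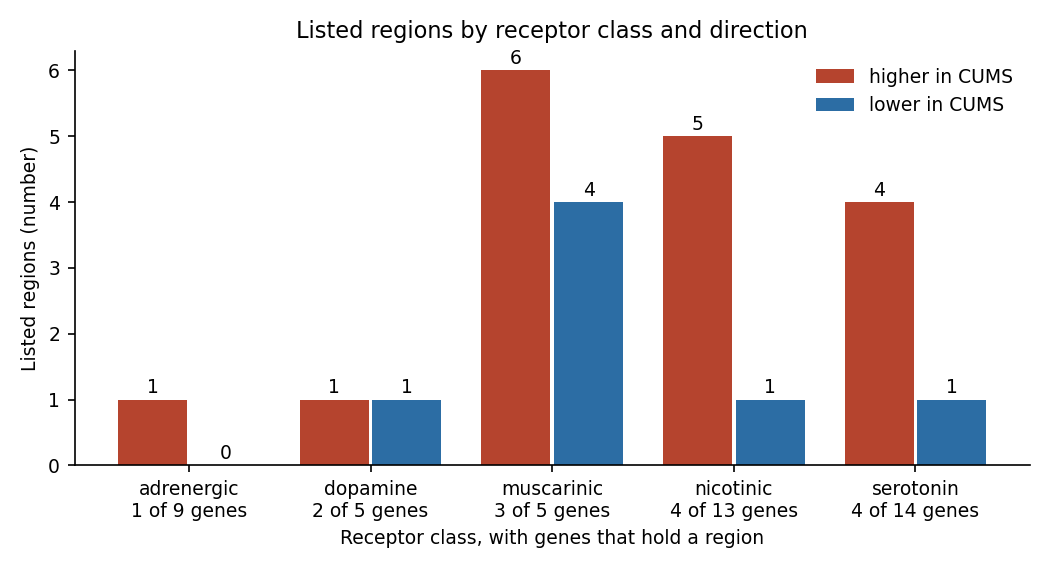
Number of listed regions (vertical axis) that were higher (red) or lower (blue) in CUMS for each receptor class, with the number of genes that held a region under each class. Muscarinic genes held 10 of the 24 regions, and the adrenergic class held 1.

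To see whether island status separated the directions, the 7 CG regions were examined one by one. Of these, 5 (71.4%) lay in a CpG island, compared with 52.7% of all annotated CG regions, and all 5 were higher in CUMS. Among all annotated CG regions in islands the share that was higher was 97.0%, so the direction of the receptor regions is that of nearly every island region. Their median difference was 10.2 percentage points (lowest 2.87, highest 20.5), against 11.4 points for all island regions that were higher. None of the 5 islands held another annotated region.

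The difference was largest at Chrm4 (ENSRNOG00000017556), which encodes a Gi-coupled muscarinic receptor. Its region of 149 bp and 28 cytosines spanned the TSS (chromosome 3, 77893416 to 77893564 on mRatBN7.2) and was annotated to the promoter, 5′ untranslated region and exon. The level was 28.4% under CUMS against 7.87% in Ctrl, a difference of 20.5 points or a ratio of 3.60. By size it ranked 434 of the 2991 island CG regions that were higher. Chrm4 alone passed a minimum of 20 points in the receptor set.

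Adra2c (ENSRNOG00000009299), the gene of a Gi-coupled receptor that restrains noradrenaline release, also carried its region at the TSS, within the promoter, 5′ untranslated region and exon. On chromosome 14 at 75472834 to 75472961, its 41 cytosines had a level of 23.3% under CUMS against 6.59% in Ctrl (difference 16.7 points, ratio 3.53, rank 742 of 2991). The island around it was 2274 bp long, the longest of the 5. In Chrm4 and Adra2c the Ctrl level was thus below 8% and the CUMS level above 23%.

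Smaller differences were found at 2 promoters without a TSS annotation. Chrna4 (ENSRNOG00000011202) encodes a nicotinic subunit that, paired with the Chrnb2 product, forms the main high-affinity nicotine receptor of the brain. Its promoter region (chromosome 3, 168157002 to 168157076, 24 cytosines) had 17.0% under CUMS against 6.77% in Ctrl, a difference of 10.2 points. Htr6 (ENSRNOG00000049761), a Gs-coupled serotonin receptor gene, had 13.7% under CUMS against 5.32% in Ctrl at its promoter (chromosome 5, 151312277 to 151312379, 30 cytosines), a difference of 8.38 points. Both thus had a Ctrl level near those of Chrm4 and Adra2c, and a CUMS level below theirs.

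Chrna5 (ENSRNOG00000013610), the gene of an accessory nicotinic subunit, carried an exonic island region of 29 cytosines on chromosome 8 at 55369869 to 55369950. Its levels were 7.23% under CUMS against 4.36% in Ctrl. The difference of 2.87 points ranked 2991 of 2991 and was the smallest of any annotated CG region that was higher.

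**Figure D3:**
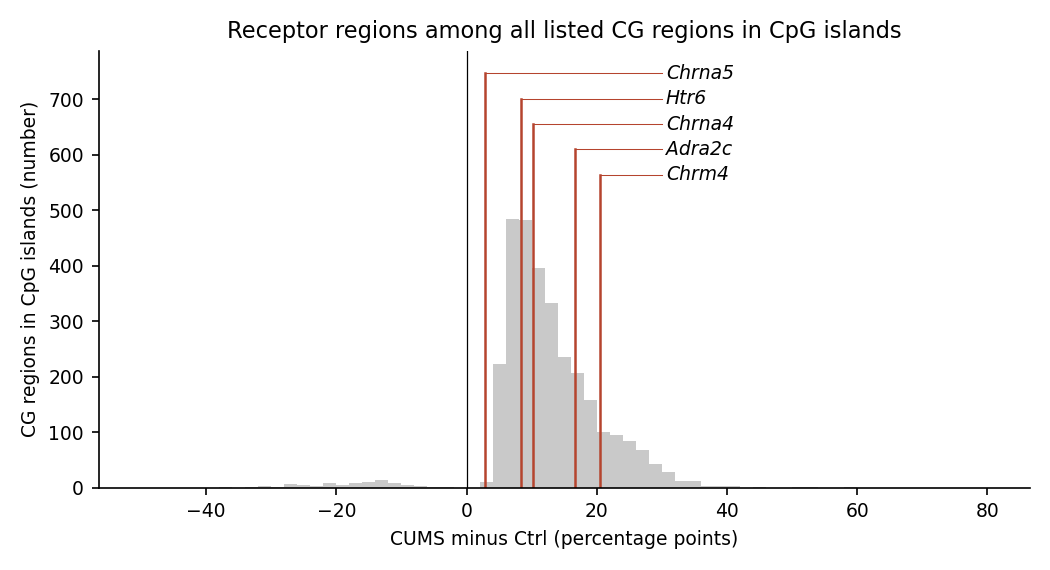
Distribution of the difference CUMS minus Ctrl in percentage points (horizontal axis) over all 3083 annotated CG regions in CpG islands (vertical axis, number of regions per 2-point bin), with red lines at the 5 receptor regions. They run from 2.87 points at Chrna5 to 20.5 points at Chrm4, all to the right of 0 as are 97.0% of the regions.

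The remaining CG regions lay outside islands and began from higher levels. Drd1 (ENSRNOG00000023688), which encodes a Gs-coupled dopamine receptor, carried the only CG region that was lower. It was a promoter region of 54 bp and 13 cytosines on chromosome 17 at 10540008 to 10540061, in an island shore (the flank of an island) and overlapping an LTR repeat of the ERVK class. The level was 53.2% under CUMS against 72.7% in Ctrl, a difference of -19.5 points that ranked 27 of 61 among shore regions that were lower. In all, 5 CG regions were annotated to the promoter of a receptor gene and 4 were higher, whereas 96.9% of all annotated CG promoter regions were higher. Drd1 is thus among 47 CG promoter regions in the table that were lower. Htr5a (ENSRNOG00000007066), a Gi-coupled serotonin receptor gene, had 87.1% under CUMS against 75.0% in Ctrl (difference 12.1 points) at an intronic region in the open sea, the class away from islands, that overlapped an LTR repeat (chromosome 4, 7448245 to 7448330, 15 cytosines).

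The CG content of the DNA before the gene start was compared between receptor genes. RefSeq promoters were given for 35 of the 46 genes, and 23 of them began at the outermost start. The 4 genes with a CG region in an island had 22 to 36 CG dinucleotides in 250 bases (median 27), the 4 with other regions had 11 to 19 (median 14.5), and the 15 without a region had 0 to 25 (median 10). Several genes without a region, such as Drd5 with 25 and Adrb1 with 24, overlapped with the first group. A CG region needs CG sites and a CpG island is CG-rich, so the high counts of the first group follow in part from how it was formed. This ordering is a description and was not tested.

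**Figure D4:**
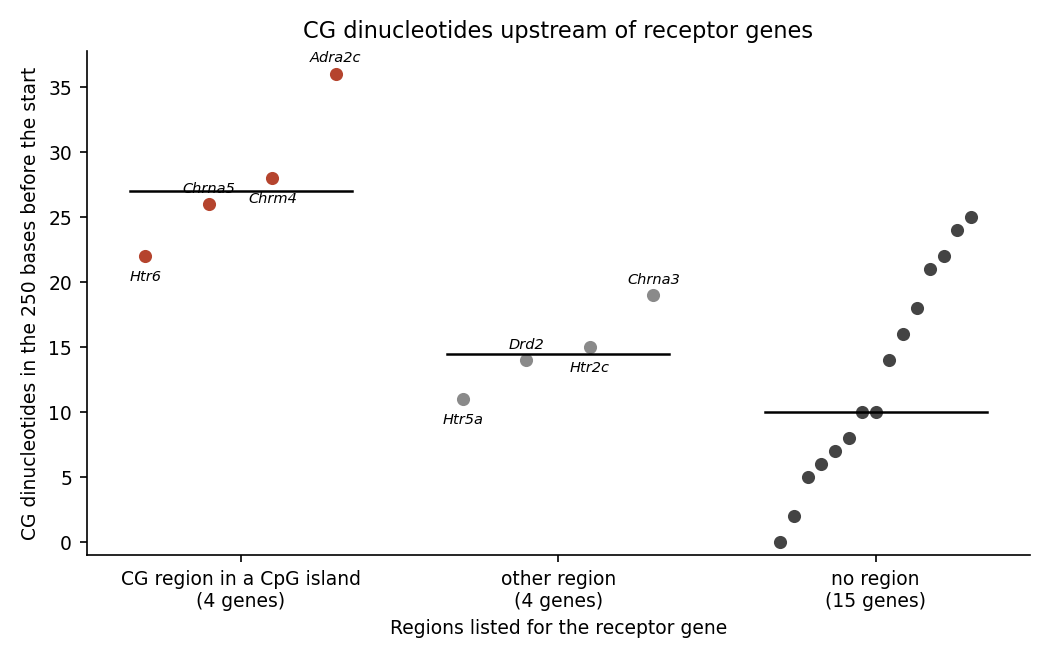
Number of CG dinucleotides in the 250 bases before the RefSeq start (vertical axis) for 23 receptor genes, grouped by the kind of region they held, each point a gene and each bar the group median. Genes with a CG region in an island have 22 to 36, genes with other regions 11 to 19, and genes without a region 0 to 25. Islands are CG-rich, so the counts of the first group follow in part from how it was formed.

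Outside the CG context, all 17 receptor regions lay in the open sea and within an intron, with 11 higher and 6 lower in CUMS. Most annotated regions of these contexts also lay in the open sea, 89.5% of CHG and 94.8% of CHH regions. The receptor regions were selected by gene symbol, so their intron share was not compared with that of all regions. In each of the 17 receptor regions 1 group was close to 0. For the 12 CHH regions the lower level ranged from 0.0741% to 0.557% (median 0.221%) and the higher one from 3.95% to 19.3% (median 7.47%). Over all annotated CHH regions these medians were 0.198% and 7.71%. For the 5 CHG regions the lower level had a median of 0.0297% and the higher one of 5.23%, beside 0.0390% and 4.17% over all. The reduced list from which the annotation was made holds the 10000 CHH regions with the largest absolute region score among 145823 in the full list, and 9996 of these are annotated.

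Chrm3 (ENSRNOG00000049410) encodes a Gq-coupled muscarinic receptor, the type through which acetylcholine relaxes many vessels by way of the endothelium. It held 8 intronic regions, 5 higher and 3 lower, of which 7 were CHH regions, over 379 kb of chromosome 17 (60074948 to 60454257). The largest difference was that of a lower CHH region in an LTR repeat (60231335 to 60231588), with 0.204% under CUMS against 19.3% in Ctrl. Its difference of -19.1 points ranked 38 of the 2146 CHH regions that were lower. Another CHH region, 6.54 kb before it (60224535 to 60224791), went the other way, with 9.60% under CUMS against 0.306% in Ctrl.

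The remaining Chrm3 regions also mixed directions. A CHH region at 60074948 to 60075245 had 13.9% under CUMS against 0.246% in Ctrl, and one in a LINE repeat at 60430610 to 60430833 had 13.5% and 0.557%. The level was 7.67% under CUMS against 0.213% in Ctrl at 60454002 to 60454257, and 3.95% and 0.0986% at 60138184 to 60138418, the smallest difference of the receptor CHH regions that were higher. At 60394887 to 60395188 a CHH region was lower, with 0.128% under CUMS against 4.27% in Ctrl, and the CHG region inside it (60394993 to 60395083, 7 cytosines) was lower as well, with 0.0188% and 5.23%. Both contexts therefore had the same direction in that LINE repeat. Of the 8 regions, 6 overlapped a repeat, beside 51.9% of all annotated CHH regions and 54.0% of all annotated CHG regions. Over all receptor regions the share in a repeat was 45.8%, near the 47.1% of all annotated regions.

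Chrm2 (ENSRNOG00000046972), the Gi-coupled muscarinic receptor gene best known from the heart, held a single intronic CHH region (chromosome 4, 65032810 to 65033044). It was lower, with 0.273% under CUMS against 4.84% in Ctrl.

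The genes Chrna5, Chrna3 and Chrnb4 lie next to each other and encode subunits of the ganglionic nicotinic receptor. Together they held 5 regions within 62.6 kb of chromosome 8, of which the first 4 in order were higher and the last was lower. After the island region of Chrna5 came a CHH region in an intron of the same gene (55390153 to 55390413), with 17.6% under CUMS against 0.0741% in Ctrl. Its 17.5 points were the largest CHH difference among the receptor regions that were higher, and it ranked 665 of 7850. The CHH region of Chrna3 (ENSRNOG00000013829, 55406789 to 55407053) had 7.28% under CUMS against 0.230% in Ctrl. Chrnb4 (ENSRNOG00000014427) held a CHG region that was higher (55421440 to 55421542, 34 cytosines, 3.99% and 0.0297%) and, 10.9 kb further, one that was lower at its promoter and exon (55432456 to 55432511, 5 cytosines, 0.546% and 3.01%). The latter had the smallest difference of the receptor CHG regions, -2.47 points, on the fewest cytosines.

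**Figure D5:**
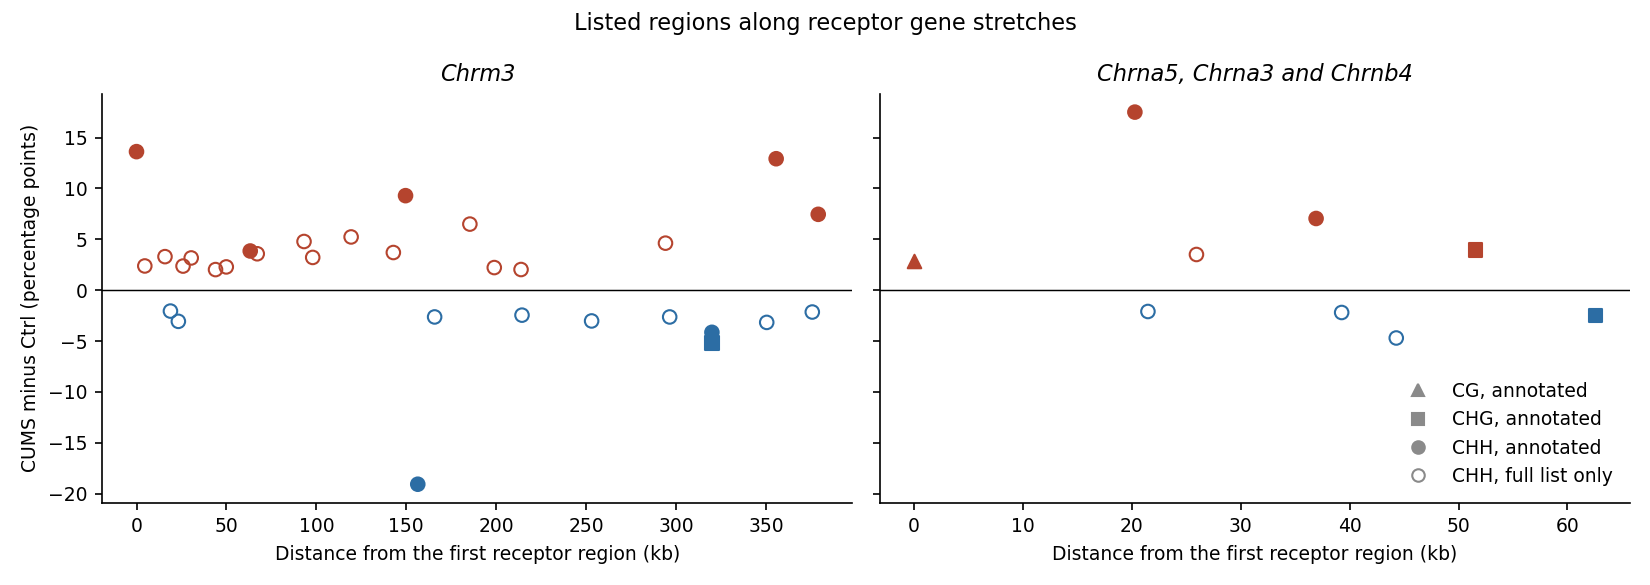
Difference CUMS minus Ctrl in percentage points (vertical axis) of listed regions along Chrm3 (left) and along Chrna5, Chrna3 and Chrnb4 (right), by distance in kb from the first receptor region. Triangles are CG, squares CHG and circles CHH regions, red higher and blue lower in CUMS, and open circles are CHH regions of the full list that the annotation table does not hold. Both directions occur along each stretch, with 20 higher and 11 lower regions in Chrm3 and 5 higher and 4 lower in the nicotinic genes.

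Htr2c (ENSRNOG00000030877), a Gq-coupled serotonin receptor gene on chromosome X, held 2 intronic CHG regions of opposite direction, 97.5 kb apart. The first (110671867 to 110672057, 29 cytosines) was higher, with 5.70% under CUMS against 0.0149% in Ctrl, and also covered the TSS of Snora35, a small nucleolar RNA gene inside Htr2c. The second (110769577 to 110769628, 9 cytosines, in a LINE repeat) was lower, with 0.0522% under CUMS against 11.9% in Ctrl. Its difference of -11.9 points ranked 63 of the 2832 CHG regions that were lower. In the full list both overlapped a CHH region of the same direction, with differences of 5.15 and -8.01 points. Across the receptor genes, 3 of 5 CHG regions overlapped a CHH region and the directions were the same in each. Overlapping regions cover the same stretch of DNA, so the shared direction is not a separate observation. The share of all annotated CHG regions with such an overlap was not computed.

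Drd2 (ENSRNOG00000008428), which encodes a Gi-coupled dopamine receptor, and Htr4 (ENSRNOG00000019134), a Gs-coupled serotonin receptor gene, each held 1 intronic CHH region that was higher. The level in Drd2 (chromosome 8, 49770332 to 49770576) was 6.24% under CUMS against 0.256% in Ctrl. In Htr4 (chromosome 18, 55776724 to 55776998) it was 4.66% and 0.134%. The dopamine receptor genes Drd1 and Drd2 thus differed in direction and in context.

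The other genes of monoamine and acetylcholine signalling were counted in the same table. For these genes and the cell markers below, a promoter, exon or intron is that of the region and may belong to an overlapping gene. Of 48 genes in 6 lists, 20 (41.7%) carried a region, compared with 25.9% of all protein-coding gene symbols. Gene length was not taken into account. RefSeq symbols that the authors' annotation does not use lower the second share. No excess is therefore drawn from these shares. Their regions comprised 38 higher and 13 lower ones (74.5% higher), close to the 75.3% of all annotated regions. All 15 CG regions were higher, against 80.0% of all annotated CG regions, and 11 of the 15 belonged to Gnas. All but that of Ddc lay in an island or a shore. There, 97.0% (islands) and 88.3% (shores) of all annotated CG regions were higher, so most regions of that kind share this direction. Among 8 synthesis enzymes, Ddc, Tph1 and Tph2 held 7 regions (5 higher, 2 lower). The intronic CG region of Ddc, which makes dopamine and serotonin from their precursors, had 78.0% under CUMS against 62.7% in Ctrl, and a CHH region of Tph1, which starts serotonin synthesis outside the brain, had 10.1% and 0.0941%. Among 5 breakdown enzymes, Maoa and Bche held 1 region each. The region of Maoa, which degrades serotonin and noradrenaline, was a CG region at a promoter and exon in an island. It had 25.5% under CUMS against 6.57% in Ctrl, and the CHH region of Bche, a cholinesterase, had 18.4% and 0.376%.

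Transport and receptor partners held few regions. Among 9 transporters, Slc18a1, Slc22a3 and Slc5a7 held 4 regions, 2 in each direction. A CHH region of Slc5a7, the choline transporter, had 7.74% under CUMS against 0.0569% in Ctrl, and one of Slc18a1, a vesicular monoamine transporter, had 0.0717% and 4.89%. Of 5 histamine and trace amine receptors, Hrh4 (CHH, 11.7% under CUMS against 0.0488% in Ctrl) and Hrh3 (CHG in an island, 0.0333% and 4.18%) held 1 region each. Of 7 further nicotinic subunits and partners, Lynx1, a membrane protein that dampens nicotinic receptors, had 6.21% under CUMS against 0.0702% in Ctrl at its CHG region, and Tmem35a, a nicotinic receptor chaperone, had 5.20% and 0.0177% at its own. All 3 regions of that list were higher.

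G protein alpha subunits and direct receptor regulators, the longest of the 6 lists, held the most regions. There were 33 (25 higher, 8 lower) in 8 of 14 genes. Over all annotated regions 75.3% were higher, and 25.9% of all protein-coding gene symbols carried a region. No excess is drawn from these counts. Gnas, which encodes the Gs alpha subunit at an imprinted locus, held 12 of the 33 regions, all higher and 11 of them CG regions. The largest differences were at a promoter and intron in an island shore (60.5% under CUMS against 38.7% in Ctrl) and in an intronic island (33.0% and 11.6%). Without Gnas the 6 lists held 26 higher and 13 lower regions.

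Whether the sorted cells were endothelial could not be checked, as the tables hold neither expression nor levels outside listed regions. Of 8 endothelial marker genes, 2 (Tek and Pecam1) held a region, and of 15 markers of other brain cells 5 did. These shares of 25.0% and 33.3% lie near the 25.9% of all protein-coding gene symbols. The CHH region of Tek had 0.0702% under CUMS against 9.21% in Ctrl, and the CHG region of Pecam1 had 5.95% and 0.253%. The markers of other brain cells held 9 regions (7 higher, 2 lower), of which 2 were CG regions. Of these 2, a region of Mog, a myelin gene of oligodendrocytes, lay at a promoter and had 49.1% under CUMS against 81.4% in Ctrl. The other, an intronic island region of Rbfox3, a neuronal gene, had 22.8% and 7.68%. The part of a different mix of cells in the receptor values was not tested.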

How the data were processed

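Levels were those of the authors' tables for 3 CUMS and 3 Ctrl samples. Per the study's methods and the submitters' processing notes, libraries were made by enzymatic conversion (TET2 and APOBEC3A), reads were checked with FastQC 0.11.3, trimmed with fastp 0.20.0 and aligned with Bismark 0.16.3 (Bowtie2) to mRatBN7.2, and DSS joined cytosines into DMRs. The authors deposited each level as a fraction from 0 to 1, pooled over the samples of a group, and these are given in percent. The columns with the authors' difference and region score were not printed, and the score served only to check how the CHH regions of the table had been selected. The profile of mean levels over all genes was not used.

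Receptor regions were counted, ranked by size of difference among regions of the same context and direction (for CG regions also the same island class), and described without a test, because the tables hold no value per sample, no coverage and no p-value. The counting steps were tested on simulated data (Python 3.11.15, pandas 2.3.3). Values are given for every receptor region, and for each pathway list for the 2 regions with the largest difference. The members and lists were chosen with earlier results of these data known. Sequences are from RefSeq (GRCr8). Alternatives covered larger differences (10 and 20 points), at least 20 cytosines, at least 100 bp, merging of overlaps of 1 bp or more, single contexts and gene assignment. A log2 ratio in place of the difference was a further one.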

Additional observations from a re-analysis of the deposited data

Results flagged for a closer look

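The full list of regions holds CHH regions that the annotation table leaves out, and such regions were found within the stretches of the receptor genes with several regions. Within the outermost Chrm3 regions there were 23 of them, 15 higher and 8 lower in CUMS. At the higher ones the median was 3.35% under CUMS against 0.0532% in Ctrl, and the lower ones 0.109% and 2.72%. Along Chrna5, Chrna3 and Chrnb4 there were 4, of which 1 was higher and 3 were lower, and within the Htr2c stretch of 97.8 kb there were 6, with 3 in each direction. Their differences ranged in size from 2.03 to 6.50 points in Chrm3, from 2.09 to 4.70 points in the nicotinic genes and from 2.72 to 7.81 points in Htr2c. Only regions wholly within a stretch were counted. The CHH regions that overlap the annotated Htr2c regions (5.15 and -8.01 points) reach past the ends of that stretch and were left out. Over the whole full list, 63.5% of the regions outside the annotation were higher in CUMS. The smallest listed difference is 2.00 points, and whether these small differences exceed the variation between rats was not tested.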

How the results depend on the processing

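No paired analysis was possible because each group has only 1 combined value, and for the same reason no sample could be left out. Of 45 comparisons with an alternative, 28 stayed the same and 17 moved, meaning that a count or the median changed by over 1.5 times or that a share left the 95% exact binomial interval of the reported one. The 28 include the island median taken as a log2 ratio with a pseudocount of 1 point (1.22). That value is on another scale, so the limit of 1.5 times does not apply to it. No called value changed sign, but among CHG regions alone more were lower than higher (3 against 2, 40.0% higher). A minimum of 10 points left 7 higher and 3 lower receptor regions (median island difference 16.7 points), and in the other pathway genes 19 and 0. A minimum of 20 points left 1 and 0, so the shares higher and in islands were both 100% and the island median 20.5 points. With at least 20 cytosines 3 lower regions were left, and with at least 100 bp 3 (island median 16.7 points). Under both settings 100% of the CG regions left lay in islands (5 of 5 and 3 of 3). The CG regions outside islands, those of Drd1 and Htr5a, fell below both limits, so nothing is drawn from that share. Without Chrm3, 4 lower regions were left. Leaving out Chrm3, the minimum of 10 points in the pathway genes, leaving out Gnas and counting genes in place of regions were added after the data were seen. The depth behind each level is unknown and limits every value.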
